A study of Mus musculus with 8 samples.

Results

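The genes described here belong to the interferon response and to class I antigen presentation, 40 genes fixed by a list of interferon-stimulated genes, interferon regulatory factors (IRF) and Stat2, nucleic acid sensors, interferon receptors, and peptide processing and loading proteins. A gene counted as measured if a probe of the deposited table carried its symbol, which held for 39 of the 40 genes, out of 16593 genes named on the arrays. Ifi44 had no such probe and was not analysed here. The study hybridised RNA of cultured mouse keratinocytes to 8 Illumina arrays, 4 from type I keratin KO cells and 4 from wild-type cells. Both groups were C57Bl6 mice, their keratinocytes were isolated from skin at embryonic stage E18.5, and no agent is listed for either. The cells grew to confluency in keratinocyte medium before lysis. Type I keratins are the acidic partners of the type II keratins in the intermediate filaments of epithelia.

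Each group had arrays numbered 1, 2, 3 and 1.1, and the labels present 1.1 as a repeat of replicate 1. Over bright probes, the log2 differences between wild-type arrays 1 and 1.1 had an SD of 0.205. KO array 1.1 lay as close to KO array 3 (SD 0.213) and stood apart from KO array 1 (SD 0.640). Each close pair was averaged into 1 replicate, giving 3 replicates per genotype. No label ties the replicates to different embryos, and the p-values therefore cover the spread among these cultures alone, which may be technical.

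The values are background-subtracted intensities on a linear scale, with 6.30 as the limit that noise rarely passes. Krt14 and Krt17, both type I keratins, averaged 4.32 ± 5.31 and -1.95 ± 2.55 on KO arrays, against 18483 ± 648 and 18014 ± 260 on wild-type arrays (± SD over 3 replicates). All 9 measured keratinocyte markers, Krt5 and Trp63 among them, were above the limit on all 8 arrays. They summed to 24534 to 29432 on KO arrays and 27750 to 30584 on wild-type arrays. By log2 difference 6 of the 9 were lower in KO cells and 3 higher. Trp63 was among the lower, at 2135 ± 399 in KO cells, against 3396 ± 457 in wild type. Of 9 leukocyte markers, 7 were on no array above it, Ptprc among them. Coro1a was above it on all 8 arrays and Laptm5 on 1 wild-type array. The summed intensity of the leukocyte list was 18.4 to 30.9 on KO arrays and 10.6 to 38.9 on wild-type arrays. Of 6 macrophage markers, Cd14 was above the limit on all 8 arrays and 3 were on none. Adgre1 passed on 1 KO array and C1qa on 1 KO and 1 wild-type array. The macrophage list summed to 18.1 to 47.8 on KO arrays and 25.2 to 38.0 on wild-type arrays. Of 4 T cell markers, Thy1 was above the limit on all 8 arrays, Cd3e on 1 KO and 1 wild-type array, and Cd3g and Cd3d on none. The T cell list summed to 22.005 to 254 on KO arrays and 26.7 to 137 on wild-type arrays. Of 4 Langerhans cell markers, Cd74 passed on 1 KO array and H2-Ab1 on 2 wild-type arrays, while Cd207 and H2-Aa passed on none. Those 4 summed to 6.99 to 13.1 on KO arrays and 6.39 to 23.45 on wild-type arrays. No mast cell or endothelial marker was above the limit on all arrays. The mast cell list summed to 1.26 to 8.59 on KO arrays and 0.613 to 17.9 on wild-type arrays. The endothelial list summed to 19.3 to 34.9 on KO arrays and 12.3 to 20.7 on wild-type arrays. Markers of melanocytes, 4 of 5 on all arrays, summed to 351 to 1603 on KO arrays and 902 to 3449 on wild-type arrays. Those of fibroblasts, 1 of 8 on all arrays and with Col1a2 and Postn on none, summed to 21.9 to 438 on KO arrays and 46.1 to 909 on wild-type arrays. Their part in the results was not tested. In such bulk RNA, fewer cells of a type and less RNA per cell cannot be told apart.

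Cells that sense viral RNA or DNA release interferons, which bind receptors on the same and neighbouring cells. Type I interferons act through IFNAR1 and IFNAR2 and the kinases JAK1 and TYK2, which activate the factor ISGF3, which holds STAT2 and IRF9. ISGF3 binds the interferon-stimulated response element (ISRE) of antiviral genes, while interferon gamma acts through IFNGR1 and IFNGR2 and the gamma-activated site (GAS). Both raise the immunoproteasome, the peptide transporter and class I molecules, and keratinocytes can make and answer interferons as part of skin defence.

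The promoters of 4 members whose KO and wild-type replicates did not overlap are shown because they carry ISRE or GAS letters. Isg15, Bst2 and Ifi35 read lower in KO cells and Ifit2 higher. The windows come from RefSeq, build GRCm38.p6, and run from 250 bases before the start of the gene to 50 after it, 5′ to 3′ on the gene's strand. They lie at chr4:156200769-156201068 (minus strand, Isg15), chr8:71537423-71537722 (minus strand, Bst2), chr11:101448162-101448461 (plus strand, Ifi35) and chr19:34550444-34550743 (plus strand, Ifit2). Capitals mark the letters of an ISRE core, GAAA, any 2 bases and GAAA, or a GAS core, TTCNNNGAA, on either strand.
Isg15: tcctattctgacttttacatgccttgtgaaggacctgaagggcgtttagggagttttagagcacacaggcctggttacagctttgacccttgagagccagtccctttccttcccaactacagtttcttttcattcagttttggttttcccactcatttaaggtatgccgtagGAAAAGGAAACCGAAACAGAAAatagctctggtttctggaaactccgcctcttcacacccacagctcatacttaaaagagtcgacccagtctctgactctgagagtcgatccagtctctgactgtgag
Bst2: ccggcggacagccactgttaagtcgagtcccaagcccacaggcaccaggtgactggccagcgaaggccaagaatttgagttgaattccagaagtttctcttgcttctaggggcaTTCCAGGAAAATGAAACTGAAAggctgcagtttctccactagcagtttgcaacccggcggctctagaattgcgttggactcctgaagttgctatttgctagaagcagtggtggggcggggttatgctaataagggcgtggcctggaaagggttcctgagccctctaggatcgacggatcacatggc
Ifi35: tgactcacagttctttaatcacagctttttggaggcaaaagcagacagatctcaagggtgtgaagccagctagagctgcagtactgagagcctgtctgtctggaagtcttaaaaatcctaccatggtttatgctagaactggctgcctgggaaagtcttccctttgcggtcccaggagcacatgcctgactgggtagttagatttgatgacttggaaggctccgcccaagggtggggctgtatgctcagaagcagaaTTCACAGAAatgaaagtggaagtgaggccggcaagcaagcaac
Ifit2: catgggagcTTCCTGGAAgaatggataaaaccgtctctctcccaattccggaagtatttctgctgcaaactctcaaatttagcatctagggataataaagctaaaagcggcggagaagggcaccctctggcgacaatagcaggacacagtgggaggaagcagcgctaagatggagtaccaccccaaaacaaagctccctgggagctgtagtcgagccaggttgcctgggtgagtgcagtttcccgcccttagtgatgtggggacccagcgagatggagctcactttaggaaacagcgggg

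In Isg15, 3 overlapping ISRE cores began at -78, -72 and -66 from the start site, as GAAAAGGAAA, GAAACCGAAA and GAAACAGAAA. In Bst2, ISRE cores began at -130 and -124, and the GAS core TTCCAGGAA at -136 shared bases with the first of them. Ifi35 had the GAS core TTCACAGAA at 7 after the start, and Ifit2 had TTCCTGGAA at -241, with no ISRE core in either of its windows. Irf9 and Psme2, whose replicates also did not overlap, had neither core in their windows, and no window was found for Usp18, likewise non-overlapping. Promoter windows were found for 34 of the 40 members, 38 windows in all. An ISRE core stood in 36.8% of these 38 windows, those of 14 genes, and in 3.44% of all 32851 windows. A GAS core stood in 23.7% of them, those of 9 genes, and in 8.3% of all windows. Such letters describe the windows and show no binding.

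Interferon response and class I presentation genes did not pass the test between genotypes. Irf9, Usp18, Isg15, Bst2, Ifi35 and Psme2 read lower in every KO replicate than in any wild-type replicate, and Ifit2 read higher. Many canonical antiviral genes, such as Mx1 and Ifit1, were too dim to measure in either genotype. Of the 39 measured members, 25 were above the limit on at least 3 of the 8 arrays and were tested. None of the 25 passed limma's test at an adjusted p under 0.05 over 9881 genes, of which 0.708% passed, and 5 members had an unadjusted p under 0.05, against 17.1% of all genes. Of these, 1 was higher in KO cells, against 8.42% of all genes, and 4 were lower, against 8.64%. The lowest adjusted p of a member was 0.0681, for Irf9. The 3 KO and 3 wild-type replicates did not overlap in 7 members, 1 higher and 6 lower in KO cells, against 22.5% of all genes, 11.6% higher and 10.9% lower. The member counts in either direction together were therefore close to the background. Usp18, above the limit on no KO array, and Ifi35, above it on 1 KO array, were lower by both counts. Neither would have passed the filter without its wild-type arrays, so the lower counts support nothing by themselves. An exact two-sided permutation test of 3 against 3 cannot go below p = 0.1, the value for each of these 7 genes.

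**Figure D1:**
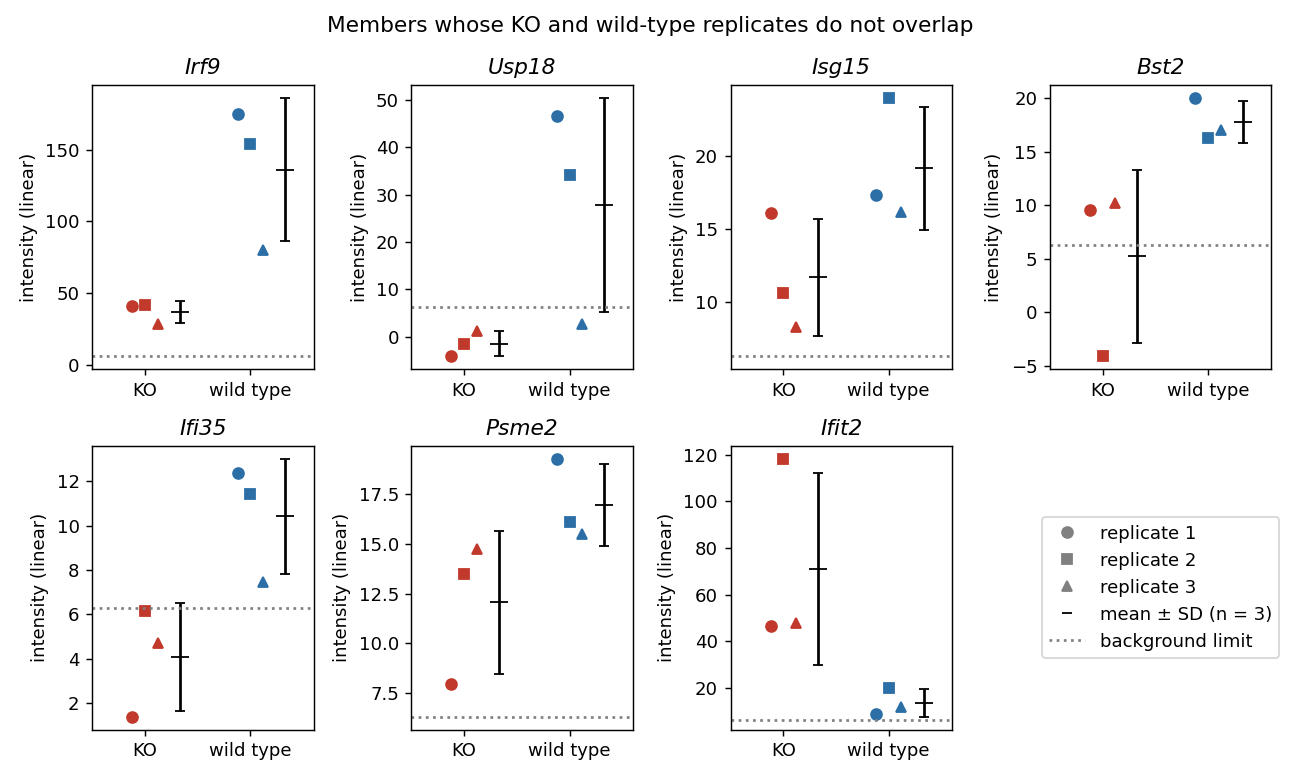
Linear intensity of the 7 members whose KO replicates (red, left) and wild-type replicates (blue, right) did not overlap, with 1 symbol per replicate, the mean ± SD (n = 3) in black and the background limit of 6.30 dotted. Irf9 read 28.4 to 41.6 in KO replicates and 79.8 to 175 in wild type, and Ifit2 read 46.4 to 118 in KO replicates and 8.63 to 20.0 in wild type.

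Among the receptors, 3 of the 4 members could be tested and none passed. Ifnar2, a chain of the type I receptor, read 32.5, 25.7 and 18.6 in KO replicates 1, 2 and 3, against 34.9, 46.1 and 30.9 in wild type. The groups overlapped between KO replicate 1 and wild-type replicate 3, and the log2 difference was -0.36 ± 0.19 (SE; limma adjusted p = 0.382). Ifngr2, the second chain of the interferon gamma receptor, read 145, 79.3 and 130 in KO cells, against 104, 45.7 and 65.6 in wild type. Its difference was 0.63 ± 0.30 (adjusted p = 0.332), while 2 other bright probes for the gene gave 0.03 and 0.00. Ifngr1, the ligand-binding chain, averaged 64.9 ± 8.56 in KO cells, against 73.1 ± 10.1 in wild type (± SD over 3 replicates). The probe for Ifnar1, the partner of Ifnar2, was not above the limit on any array.

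Irf9, the DNA-binding subunit of ISGF3, had the largest difference among the transcription factors. It read 40.8, 41.6 and 28.4 in KO replicates 1, 2 and 3, against 175, 154 and 79.8 in wild type. Every KO replicate lay below every wild-type replicate, and wild-type replicate 3 was the lowest of its group. The log2 difference was -1.47 ± 0.28 (SE), with a 95% interval from -2.12 to -0.83 and a limma adjusted p of 0.0681. Without wild-type replicate 3, with the arrays averaged as labelled or with array weights, Irf9 passed (adjusted p 0.0186 to 0.242 over 17 alternatives). A dimmer second Irf9 probe averaged 1.09 ± 1.87 in KO cells, against 9.84 ± 5.30 in wild type (± SD over 3 replicates), above the limit on no KO array and 3 of 4 wild-type arrays.

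The other factors differed by less than their spread. Irf1, an early interferon gamma target, read 80.8, 91.4 and 214 in KO cells, against 136, 93.3 and 83.0 in wild type. KO replicate 3 was the highest and KO replicate 1 the lowest of the 6, and the log2 difference was 0.18 ± 0.34 (SE; limma adjusted p = 0.842). Irf3, the constitutive factor downstream of the sensors, read 894, 813 and 882 in KO cells, against 888, 806 and 758 in wild type. The groups nearly coincided, at 0.08 ± 0.14 (95% interval -0.25 to 0.41), and all 3 Irf3 probes gave between 0.04 and 0.10. Stat2, a further subunit of ISGF3, was above the limit on 1 of 4 KO and 3 of 4 wild-type arrays, at 6.69 ± 3.55 in KO, against 10.2 ± 7.86 in wild type (± SD over 3 replicates). Irf7, which amplifies the type I response, was above the limit on no array.

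Ddx58, which encodes the viral RNA sensor RIG-I, was the only sensor of the 3 members above the limit. It read 54.5, 71.1 and 87.8 in KO cells, against 51.6, 65.4 and 42.3 in wild type. The groups overlapped, at a log2 difference of 0.33 ± 0.20 (SE; limma adjusted p = 0.459). Ifih1, which encodes the sensor MDA5, and Dhx58, which encodes their relative LGP2, were above the limit on no array of either genotype.

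Effector genes encode the antiviral proteins that interferon raises, and most were at or near the limit in both genotypes. Of 19 members, 9 were tested, and of these Ifit3 and Ifitm3 were above the limit on all 8 arrays. Ifit1, Oas1a, Oas2, Oasl1, Mx1 and Mx2 were above it on none, whether the cells were KO or wild type. Rsad2 passed the limit on 2 KO arrays, the pair averaged as KO replicate 3, and on no wild-type array. Xaf1 passed it on 1 KO array, and Cxcl10, a chemokine that attracts T cells, on 2 wild-type arrays.

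Usp18, a protease that removes ISG15 from proteins and restrains the type I receptor, read -4.07, -1.54 and 1.18 in KO cells, against 46.6, 34.2 and 2.74 in wild type. It was above the limit on no KO array and on 3 of 4 wild-type arrays, with wild-type replicate 3 below the limit. The wild-type mean of log2 intensity against the limit put it at least 2.59-fold lower in KO cells (limma adjusted p = 0.152). The fitted log2 difference, which depends on the offset of 16, was -1.44 ± 0.43 (SE), and without wild-type replicate 3 the gene passed (adjusted p 0.0299 to 0.439 over 16 alternatives). A second bright Usp18 probe was likewise above the limit on no KO array and on 3 wild-type arrays.

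Isg15, the ubiquitin-like protein that Usp18 removes, read 16.1, 10.6 and 8.31 in KO cells, against 17.3, 23.97 and 16.2 in wild type. The groups did not overlap, by a margin of under 1 unit between KO replicate 1 and wild-type replicate 3, and the log2 difference was -0.36 ± 0.17 (SE; limma adjusted p = 0.347). Before averaging, single arrays did overlap, with KO array 1 at 16.1 and wild-type array 1.1 at 15.4. Bst2, the tetherin that holds budding virions at the cell surface, read 9.56, -4.07 and 10.2 in KO cells, against 20.0, 16.3 and 17.04 in wild type. KO replicate 2 was below the limit. All wild-type replicates lay above all KO replicates, at a log2 difference of -0.76 ± 0.30 (adjusted p = 0.263). Ifi35, an interferon-induced protein, read 1.38, 6.12 and 4.71 in KO cells, against 12.4, 11.4 and 7.46 in wild type. Every KO replicate lay below the limit, and the gene was above it on 1 KO array and on 4 wild-type arrays. The replicates were apart at -0.40 ± 0.16 (adjusted p = 0.261), while single Ifi35 arrays overlapped, with KO array 1.1 at 7.67 and wild-type array 3 at 7.46.

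Ifit2, an RNA-binding antiviral protein of the IFIT family, was the member that read higher in every KO replicate. It read 46.4, 118 and 47.9 in KO cells, against 8.63, 20.0 and 11.9 in wild type. The groups did not overlap, with KO replicate 2 the highest of the 6, and the log2 difference was 1.48 ± 0.32 (SE), with a 95% interval from 0.73 to 2.24 and a limma adjusted p of 0.0907. A second bright Ifit2 probe gave 1.53, with 69.7 ± 43.5 in KO cells, against 12.2 ± 8.76 in wild type (± SD over 3 replicates). Its relative Ifit3 read 13.9, 26.9 and 9.32 in KO cells, against 21.0, 17.1 and 11.9 in wild type. The Ifit3 groups overlapped fully, at -0.02 ± 0.23.

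Ifitm3, a membrane protein that blocks virus entry, read 907, 1522 and 3444 in KO cells, against 2510, 2319 and 1996 in wild type. The KO replicates spread on both sides of the wild-type range, so the log2 difference of -0.42 ± 0.43 (SE) lay within the spread (limma adjusted p = 0.679). Gbp2, a guanylate-binding protein of the interferon gamma response, averaged 11.1 ± 6.21 in KO cells, against 12.2 ± 3.07 in wild type (± SD over 3 replicates). Oasl2, a 2'-5' oligoadenylate synthetase-like protein, was above the limit on no KO array and on 3 of 4 wild-type arrays, too dim for a fold.

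**Figure D2:**
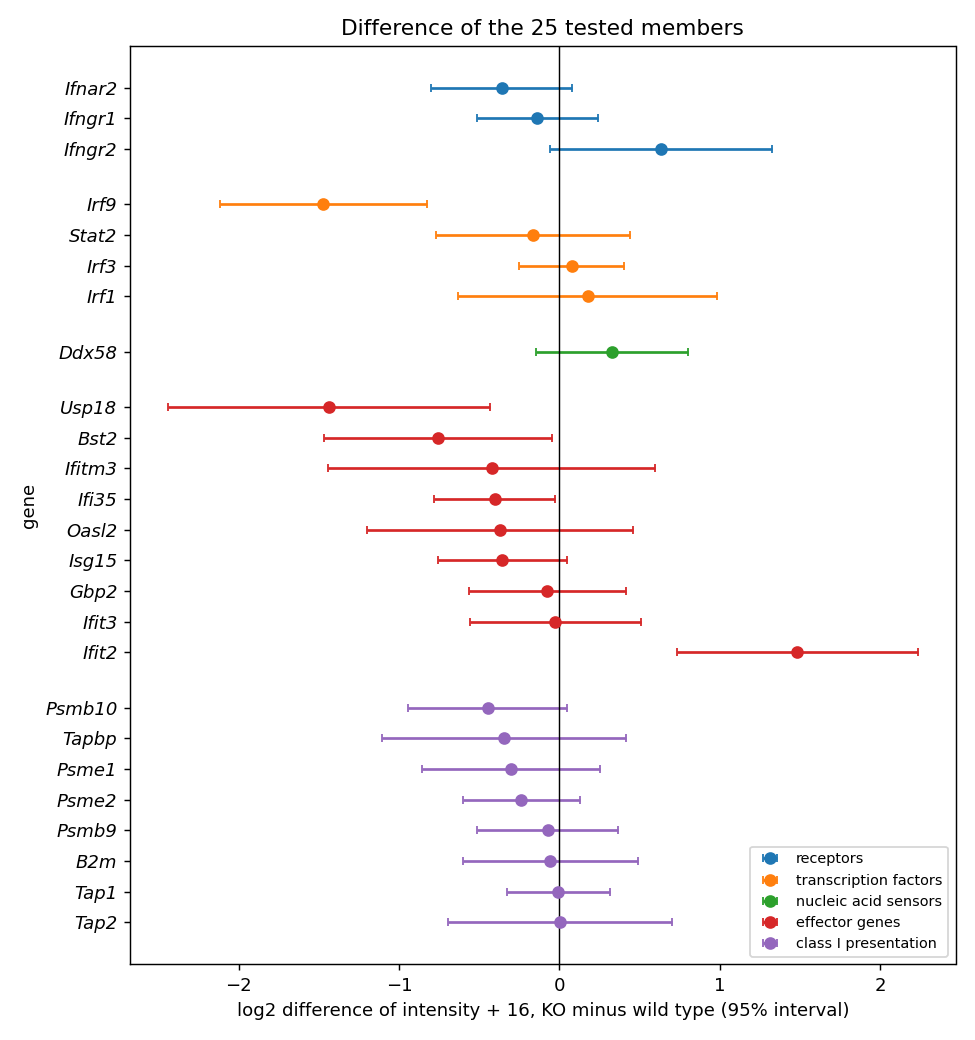
Log2 difference of intensity + 16, KO minus wild type, for the 25 tested members grouped by role, with 95% intervals from limma. The intervals of 20 members include 0, and those of Irf9, Usp18, Bst2, Ifi35 and Ifit2 do not, with Ifit2 alone of these above 0.

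Class I presentation was the subgroup with 8 of 9 members tested, and none passed. B2m, the light chain of class I molecules, read 866, 941 and 1545 in KO cells, against 1112, 1052 and 1217 in wild type. KO replicate 3 was the highest and KO replicates 1 and 2 the lowest of the 6, so the groups overlapped at a log2 difference of -0.06 ± 0.23 (SE; 95% interval -0.60 to 0.49). A second B2m probe gave 0.04. Tap1, a subunit of the peptide transporter, averaged 24.5 ± 1.87 in KO cells, against 24.7 ± 3.00 in wild type (± SD over 3 replicates), with a 95% interval from -0.33 to 0.32. Tap2, its partner, averaged 21.3 ± 7.68 in KO cells, against 22.8 ± 16.2 in wild type.

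Among the proteasome members, Psmb10, a catalytic subunit of the immunoproteasome, read 150, 121 and 101 in KO cells, against 143, 162 and 224 in wild type. KO replicate 1 lay above wild-type replicate 1, and the log2 difference was -0.45 ± 0.21 (SE; limma adjusted p = 0.337). Psme2, a subunit of the PA28 activator that opens the proteasome, read 7.94, 13.5 and 14.8 in KO cells, against 19.3, 16.1 and 15.5 in wild type. The groups did not overlap, by a margin of under 1 unit between the third replicates, at -0.24 ± 0.16 (adjusted p = 0.487). Its partner Psme1 averaged 401 ± 116 in KO cells, against 490 ± 88.1 in wild type (± SD over 3 replicates), at -0.30 ± 0.24. Psmb9, a further immunoproteasome subunit, averaged 9.49 ± 4.02 in KO cells, against 10.8 ± 4.02 in wild type, and the third, Psmb8, passed the limit on 1 KO array.

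Tapbp, the tapasin that docks class I molecules on the transporter, read -1.48, 4.16 and 13.2 in KO cells, against 6.32, 22.5 and 4.56 in wild type. The groups overlapped widely, at a log2 difference of -0.35 ± 0.33 (SE; limma adjusted p = 0.646), and a second probe pointed the other way, at 0.15. Of the 11 tested members with several bright probes, 9 had every probe on the same side of 0, and Tapbp and B2m had probes on both sides.

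Compared by role, the median log2 difference was -0.37 over the 9 tested effector genes, -0.16 over the 8 class I genes, -0.14 over the 3 receptors and -0.04 over the 4 transcription factors. Ddx58 alone stood for the sensors, at 0.33. The effector median was the fitted value of Oasl2, which was above the limit in wild type only. It was -0.38 with Usp18 at its bound and Oasl2 left out, and it ran from -0.61 with an offset of 4 to -0.13 with an offset of 64. The transcription factor median changed sign with an offset of 64, with probes above the limit on all 8 arrays, and without wild-type replicate 1 or 2. Over all 25 tested members the median was -0.17, with 19 negative and 6 positive, against a median of 0.02 and 47.5% negative over all genes tested. A dim gene passed the filter through the genotype in which it was higher, so these counts support nothing by themselves. With no filter, 26 of the 39 measured members were negative, against 47.9% of 16593 genes, at a median of -0.14. With Usp18 at its bound and Oasl2 left out, the median over the tested members was -0.15.

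By replicate, the mean log2 level of the 25 members was 5.89, 6.01 and 6.15 in KO replicates 1, 2 and 3, against 6.35, 6.28 and 5.99 in wild type. Wild-type replicate 3 thus lay among the KO replicates. The 9 effector genes repeated this, with 5.10, 5.38 and 5.50 in KO cells, against 5.73, 5.75 and 5.30 in wild type. The 8 class I genes gave 6.17, 6.27 and 6.40 in KO cells, against 6.55, 6.46 and 6.38 in wild type, and there KO replicate 3 was just higher than wild-type replicate 3. Usp18, Oasl2 and Ifi35 among the effector genes, and Stat2 among the factors, passed the filter only through their wild-type arrays. Higher wild-type means of these sets therefore support nothing by themselves. The mean of all genes tested stayed between 7.07 and 7.08 in every replicate. Whether the place of wild-type replicate 3 was particular to the members was not tested. Over bright probes, the log2 differences of wild-type array 3 from KO arrays 1 and 2 had SDs of 0.561 and 0.570. Such SDs give distance and not level. The differences of KO array 3 from the same arrays were wider, at 0.640 and 0.595. Wild-type array 3 was nearest wild-type array 1, at 0.4355.

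**Figure D3:**
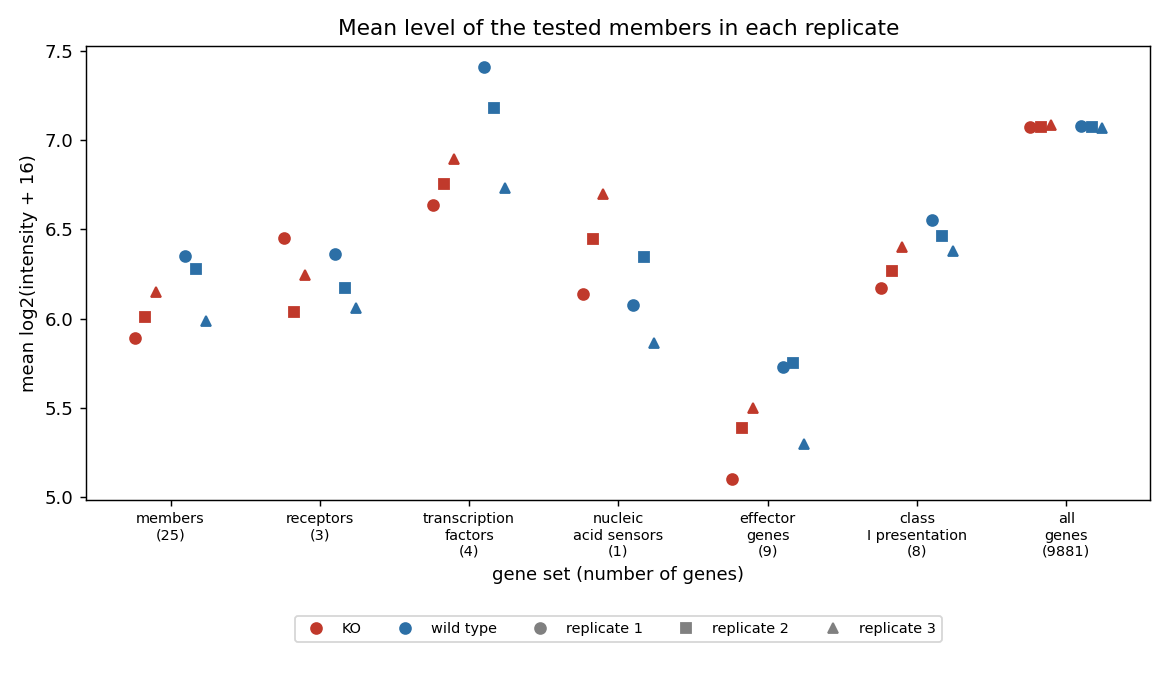
Mean log2(intensity + 16) of the tested members, of each role and of all tested genes in each KO replicate (red, left) and wild-type replicate (blue, right). In the effector genes wild-type replicates 1 and 2, at 5.73 and 5.75, stand above all KO replicates, and wild-type replicate 3, at 5.30, stands between KO replicates 1 and 2. Usp18, Oasl2 and Ifi35 of this set passed the filter only through their wild-type arrays.

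Other genes of the pathway, 185 on 7 lists, showed which steps around the members were measurable, and 1 of the 94 tested passed. Their counts at an unadjusted p under 0.05 stand beside 17.1% of all genes tested, 8.42% higher and 8.64% lower. Cgas, Parp14, Lgals3bp, Erap1 and Nlrc5, counted lower, passed the filter through wild-type arrays alone, so these counts support nothing by themselves. Among the interferon genes themselves, Ifnb1 and Ifnk, an interferon known from human keratinocytes, were above the limit on no array of either genotype. Of 19 ligand genes 4 were tested, and 0 passed (0 at an unadjusted p under 0.05). Ifna6 averaged 36.0 ± 9.70 in KO cells, against 29.0 ± 4.20 in wild type (± SD over 3 replicates). Ifne, an epithelial interferon, read 18.1, 12.6 and 8.12 in KO cells, against 9.86, 7.19 and 8.18 in wild type, and the groups overlapped. The alpha interferon genes are close copies of each other, so which one the Ifna6 probe measured is uncertain.

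Of 13 tested signal transducers and regulators, 12 were negative, at a median of -0.39, and 1 passed (limma; 4 at an unadjusted p under 0.05, all lower). Socs3, a feedback inhibitor of JAK kinases, read 57.9, 68.7 and 50.7 in KO cells, against 232, 164 and 220 in wild type. It fell by 1.55 ± 0.18 (SE) on the log2 scale (limma adjusted p = 0.0226; 0.00764 to 0.113 over 17 alternatives), and it lost its call with the replicate block, with an offset of 4, without KO replicate 1 or 2 and without wild-type replicate 1 or 2. Stat3 and Jak2, named after their values were seen, averaged 419 ± 88.6 and 206 ± 44.4 in KO, against 829 ± 191 and 297 ± 43.4 in wild type (± SD over 3 replicates), with adjusted p values of 0.106 and 0.258. The phosphatase Ptpn11 averaged 3391 ± 276 in KO cells, against 3540 ± 275 in wild type.

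Among 28 further interferon-stimulated genes tested, 13 were negative and 15 positive, at a median of 0.06, and 0 passed (limma; 6 at an unadjusted p under 0.05, all lower, against 8.64% of all genes lower). Ifi27, an interferon-induced protein, read 15.7, 45.2 and 31.1 in KO cells, against 340, 436 and 127 in wild type. Every KO replicate lay below every wild-type replicate, and the log2 difference was -2.66 ± 0.44 (SE; adjusted p = 0.0546, and 0.0149 to 0.216 over 17 alternatives). Wild-type replicate 3 was again the lowest of its group, and without it Ifi27 passed. Parp14, an ADP-ribosyltransferase, read -1.04, -2.04 and -1.73 in KO cells, against 17.5, 5.97 and 8.56 in wild type (limma adjusted p = 0.0886). It was above the limit on no KO array and on 3 of 4 wild-type arrays, with wild-type replicate 2 below the limit. The wild-type mean of log2 intensity against the limit put it at least 1.52-fold lower in KO cells. The GTPase Irgm1 averaged 5106 ± 769 in KO cells, against 4644 ± 118 in wild type (± SD over 3 replicates).

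In the sensor pathway 14 of 20 genes were tested, and 0 passed (limma; 2 at an unadjusted p under 0.05, both lower). Trex1, the exonuclease that clears DNA from the cytosol, read 54.2, 48.0 and 51.8 in KO cells, against 91.0, 103 and 62.7 in wild type. The groups did not overlap, at a log2 difference of -0.57 ± 0.19 (SE; adjusted p = 0.181). Cgas, the sensor of that DNA, was above the limit on no KO array and on 4 wild-type arrays, at least 1.47-fold lower (adjusted p = 0.202). The adaptor Myd88 averaged 814 ± 209 in KO cells, against 1046 ± 142 in wild type (± SD over 3 replicates).

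Class I heavy chains and loading factors showed 10 negative and 5 positive among 15 tested, at a median of -0.11, and 0 passed (limma; 4 at an unadjusted p under 0.05, 1 higher and 3 lower). Erap1, which trims peptides for class I molecules, read 0.73, 1.43 and 5.33 in KO cells, against 11.3, 13.2 and 9.24 in wild type. It was above the limit on no KO array and on 4 wild-type arrays, at least 1.77-fold lower (adjusted p = 0.135). Nlrc5, an activator of class I genes, was above it on no KO array and 3 wild-type arrays, too dim for a fold (adjusted p = 0.232). Heavy chain genes are near copies of each other, so H2-K1 and H2-D1 readings may mix several genes. The oxidoreductase Pdia3, which helps load peptides, averaged 3184 ± 480 in KO cells, against 3486 ± 362 in wild type (± SD over 3 replicates).

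Class II presentation was largely below the limit, with 4 of 15 genes tested and 0 called (limma; 0 at an unadjusted p under 0.05). Ciita, the class II activator, and H2-Aa were above the limit on no array. H2-DMa averaged 8.51 ± 2.61 in KO cells, against 5.90 ± 1.34 in wild type, Rfxank 7.53 ± 2.92 in KO, against 5.46 ± 6.08 in wild type, and Rfxap 237 ± 45.9 in KO, against 221 ± 15.7 in wild type (± SD over 3 replicates). The constitutive proteasome gave a median of 0.06 over 16 tested genes, 13 of them positive, and 0 passed (limma; 0 at an unadjusted p under 0.05). Pomp, a proteasome assembly factor, averaged 2701 ± 259 in KO cells, against 2159 ± 102 in wild type, and Psme4, an activator, 1287 ± 209 in KO, against 1556 ± 173 in wild type (± SD over 3 replicates). The core subunit Psma3 averaged 7421 ± 159 in KO cells, against 6740 ± 137 in wild type.

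**Figure D4:**
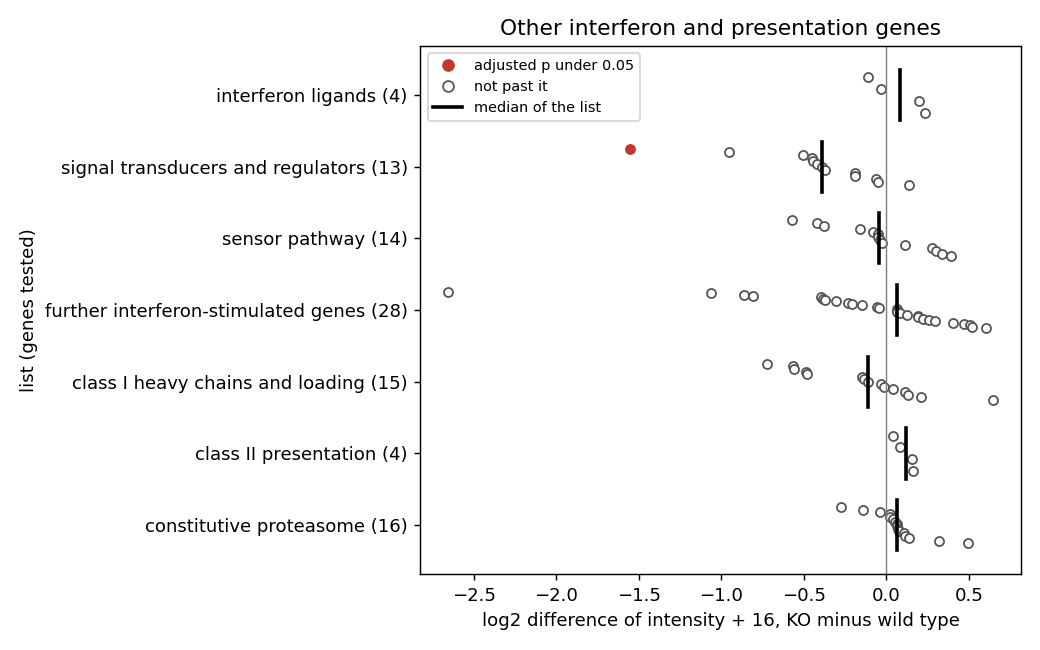
Log2 difference of intensity + 16, KO minus wild type, of the tested genes on the 7 other lists, 1 point a gene, with the median of each list as a bar and genes at an adjusted p under 0.05 filled. Socs3, at -1.55, is the filled point, and Ifi27, at -2.66, lies farthest from 0.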

How the data were processed

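RNA of KO and wild-type keratinocytes was measured on 8 Illumina arrays, taken as 3 replicates per genotype. The deposited table gives 1 intensity per probe and array for 25697 probes; the sources used here do not give how the authors made these values. They show background subtraction (27.1% to 27.3% of probes negative, minimum -12.8) and quantile normalization. Exact values recur across arrays, such as 17836 on wild-type arrays 1 and 3 and 19131 on 2 and 1.1 for Krt14. The 75th percentile was 98.8 on KO array 1, and the maximum over all arrays was 20141. A table of non-normalized signals was not used, because its 16 value columns match no sample label.

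The background limit, 6.30, leaves 5% of the negative values mirrored around 0 above it. It was passed by 53.0% to 53.2% of probes per array. Values were analysed as log2(intensity + 16), which understates changes of dim genes. Replicate intensities are means of their arrays. Symbols came from the platform annotation (23978 probes with 1 symbol, 0 with several, 1719 with none), and 23962 gene IDs were found in RefSeq's GRCm38.p6 table. Per gene, the probe of highest mean above the limit on at least 3 arrays was tested, 9881 genes in all.

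limma (lmFit, eBayes) compared 3 KO with 3 wild-type replicates, with Benjamini-Hochberg adjustment over all genes and a threshold of 0.05. All adjusted p values are limma's. For a gene above the limit in no array of a genotype, the fold is a bound: the other genotype's mean log2 intensity against the limit. Same-numbered KO and wild-type replicates deviated from their group means with correlations of 0.06, 0.02 and -0.35, so numbers did not pair samples. The fit was tested on simulated data. Members, lists and pairing of arrays were chosen with earlier results of these data known. Values were printed for members called, not overlapping, with the 2 largest differences in their role or the highest mean, and in other lists for called genes, or else the 2 lowest p values, and the highest mean. Alternatives covered pairing, block, offset, filters, probes, prior, array weights, centring and replicates left out singly. The software was R 4.3.3, limma 3.58.1, statmod 1.5.0, Python 3.11.15, pandas 2.3.3 and matplotlib 3.10.9. The number of arrays limits the precision.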

Additional observations from a re-analysis of the deposited data

How the results depend on the processing

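The count of members past the threshold was 0 and became 1 with arrays averaged as labelled (Irf9) and 3 with array weights (Ifit2, Irf9 and Usp18). It ran from 0 to 2 with each replicate left out, the 2 being Irf9 and Usp18 without wild-type replicate 3. With probes required above the limit on all 8 arrays, 10 of 15 tested members were negative. The effector median was -0.61 with an offset of 4 and -0.13 with an offset of 64. The class I median was -0.28 with array weights and -0.31 to -0.10 with each replicate left out, the lowest without KO replicate 3. The 1 call on the other lists became 0 with the replicate block or an offset of 4. It became 2, Ifi27 with Socs3, with arrays averaged as labelled, with no filter and with all 8 arrays required, and 7 with array weights. It ran from 0 to 2 with each replicate left out. The replicate block left the members' count at 0 and gave 21 calls over all genes, against 70. Calls over all genes were 16 with an offset of 4, 105 with an intensity trend, 261 as labelled, 46 with ribosomal centring and 930 with array weights, and 5 to 261 with each replicate left out. The causes were not tested. Irf9, Usp18, Isg15, Bst2, Ifi35, Psme2 and Ifit2 kept their sign in every alternative that tested them. These genes were named because their replicates did not overlap. Leaving out a replicate or adding the block could not change their sign, so this adds no support. With both 1.1 arrays left out, 0 members passed and the median was -0.11; without the members above the limit on no KO array, an alternative chosen after seeing the data, it was -0.14, and the effector median -0.36. The member median stayed negative in all alternatives, from -0.28 to -0.06. Signals near the limit leave many effector genes unmeasured rather than absent.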
